A study of Mus musculus with 12 samples.

Results

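The melanin pigment genes examined here were 8 of the 25124 genes listed in each of the 2 expression tables of this series: Dct, Tyr, Tyrp1, Pmel, Mlana, Slc45a2, Oca2 and Mitf. They were found by gene symbol, and they were chosen from their measured values in these same libraries, so that every difference between groups given for them is a description and carries no p-value. RNA was taken from bulk retina of WT C57BL/6J mice. In each animal the intraocular pressure (IOP) of 1 eye was raised to 30 mmHg for 1 h, and the contralateral eye was left untreated as the control. The single-elevation table held 8 libraries, 2 from each of 4 groups. These were the treated eyes of animals of 3 months (3mo IOP) and of 18 months (18mo IOP), collected 2 days after the elevation, and the untreated eyes of either age (3mo control, 18mo control). The repeated-elevation table held 2 groups of 2 libraries: 4xIOP, with 4 elevations given every 2 weeks from the age of 3 months and collected 2 days after the last, and 4xIOP control, the untreated fellow eyes. All groups had the same wild-type genotype, and the control was the other eye of treated animals. The study prepared RNA from the retina of single eyes and names the 2 libraries of a group as biological replicates, but the sources used here do not give which eyes shared an animal.

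Melanin is made in melanosomes, organelles that mature from pigment-free precursors along protein fibrils. In the eye it is held by the retinal pigment epithelium (RPE), a single layer of cells behind the photoreceptors that grows out of the optic cup, by the pigmented layers of the ciliary body and iris, and by melanocytes of the choroid and iris stroma, which come from the neural crest. The neural retina itself makes no melanin, and C57BL/6J is a pigmented strain. Among the members, tyrosinase (Tyr) carries out the rate-limiting oxidation of tyrosine, and dopachrome tautomerase (Dct) and Tyrp1 act on later intermediates of eumelanin. Pmel forms the fibrils on which melanin is laid down, and Mlana is a small membrane protein of the early melanosome. Oca2 and Slc45a2 are membrane transporters that set the ion balance and pH of the melanosome, and loss of either causes albinism. Mitf is the basic helix-loop-helix leucine zipper factor that switches on most of the others in melanocytes and in the RPE.

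The members stood on 7 chromosomes of mm10, so that no shared neighbourhood joined them apart from Tyr and Oca2 on chromosome 7. Tyr lay at chr7:87424771-87493512 on the minus strand, Oca2 at chr7:56239759-56536518 on the plus strand, Tyrp1 at chr4:80834213-80851736 on the plus strand and Dct at chr14:118012790-118052246 on the minus strand. Pmel lay at chr10:128706258-128720238, Mlana at chr19:29697941-29708306 and Slc45a2 at chr15:11000721-11029233, all on the plus strand. Pmel overlapped Dgka, which is transcribed from the opposite strand, and the counting was set to use strand. Mitf differed between the tables in the transcript that stood for it. In the single-elevation table it was the transcript at chr6:97991783-98021358, which begins at the most downstream of the 3 RefSeq starts of the gene, and in the repeated-elevation table it was the longer one at chr6:97807058-98021358. The downstream start is the one known from melanocytes, but its transcript shares most exons with the other forms, so that the Mitf values do not separate the forms.

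Mitf is known to bind an extended E-box, the M-box, in the promoters of the tyrosinase family, and the bases before the start of these genes are shown for that reason. RefSeq promoter entries (build GRCm38.p6, whose coordinates are those of mm10) existed for 5 of the 8 members: Tyr, Tyrp1, Dct, Oca2 and Mitf. Pmel, Mlana and Slc45a2 had no entry. Both strands of the 300 bases around each start, 250 before and 50 after, were searched for TCATGTG, the core of the M-box, and for CACGTG, the E-box shared by many factors of this class; the 2 words do not overlap. The 250 bases before the start are printed on the strand of the gene, with TCATGTG or its reverse complement CACATGA in capitals.
Tyr, chr7:87493513-87493762, minus strand: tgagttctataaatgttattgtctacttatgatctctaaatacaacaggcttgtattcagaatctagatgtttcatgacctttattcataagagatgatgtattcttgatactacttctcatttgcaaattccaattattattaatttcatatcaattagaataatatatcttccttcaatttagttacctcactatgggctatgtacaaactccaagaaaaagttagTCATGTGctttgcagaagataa
Tyrp1, chr4:80833963-80834212, plus strand: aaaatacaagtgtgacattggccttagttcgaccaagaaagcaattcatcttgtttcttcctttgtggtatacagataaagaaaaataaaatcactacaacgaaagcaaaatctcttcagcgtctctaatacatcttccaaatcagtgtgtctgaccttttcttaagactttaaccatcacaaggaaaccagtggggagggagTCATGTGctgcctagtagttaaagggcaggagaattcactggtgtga
Dct, chr14:118052247-118052496, minus strand: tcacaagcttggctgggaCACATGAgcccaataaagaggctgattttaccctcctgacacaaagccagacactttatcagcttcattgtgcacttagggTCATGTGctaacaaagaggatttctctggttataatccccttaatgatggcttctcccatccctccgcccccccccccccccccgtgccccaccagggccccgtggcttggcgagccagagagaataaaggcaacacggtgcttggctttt

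TCATGTG began 22 bases before the start of Tyr, 47 bases before that of Tyrp1 and 151 bases before that of Dct. Dct held a further copy on the opposite strand, at position -232, counted from the start. Neither word was found in the window of Oca2 or in those of the 3 starts of Mitf, and CACGTG was in none of the windows of the 5 genes. Of 32851 RefSeq promoters of the same length, 3.77% held the M-box core and 7.15% held the E-box. These matches describe the letters of the windows only.

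The depth was 39766233 to 59455058 mapped tags per library as recovered from the values themselves, with 44.2 to 71.5% of them in exons. Values are FPKM, tags per kilobase of transcript, scaled to the mapped tags of the library, and a log2 fold change is the difference of log2(FPKM + 0.5) with its standard error (SE) from a limma fit, which understates changes of genes near 0. A gene was called where the Benjamini-Hochberg adjusted p was at most 0.05 and the log2 fold change at least 1 in size. Only genes averaging 0.5 FPKM or more in a table entered the fits: 7 of the 8 members in the single-elevation table, all but Slc45a2, and 2 of the 8, Dct and Mitf, in the repeated-elevation table. The median FPKM of short protein-coding transcripts over that of long ones, a sign of library make-up, was 3.03 to 9.12 in the 3mo libraries and 1.52 to 2.91 in the others. With the trend of each library on transcript length removed, the members' medians kept their sign in all 5 comparisons, and Mlana, whose transcript is 454 bases long, differed by -2.27 with age in untreated eyes in place of -3.27. In bulk tissue, fewer cells of a type and less RNA per cell cannot be told apart.

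In the untreated eyes of 3mo animals, the melanin genes were present but differed strongly between the 2 libraries. Dct was the highest member, with 34.6 FPKM in replicate 1 and 8.08 in replicate 2. All 8 members were higher in replicate 1 than in replicate 2, and the summed FPKM of the 8 was 70.6 and 20.6. Tyrp1 stood at 11.8 and 3.11 FPKM, Mlana at 11.4 and 4.57, and Pmel at 8.86 and 2.90. The rate-limiting enzyme was much lower than its relatives on this per-length scale, with 1.63 and 0.625 FPKM of Tyr. Oca2 was listed at 0.868 and 0.340 FPKM and Slc45a2 at 0.130 and 0.042, the latter on 16 and 6 reads. Mitf, at 1.32 and 0.958 FPKM, differed least between these libraries.

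**Figure D1:**
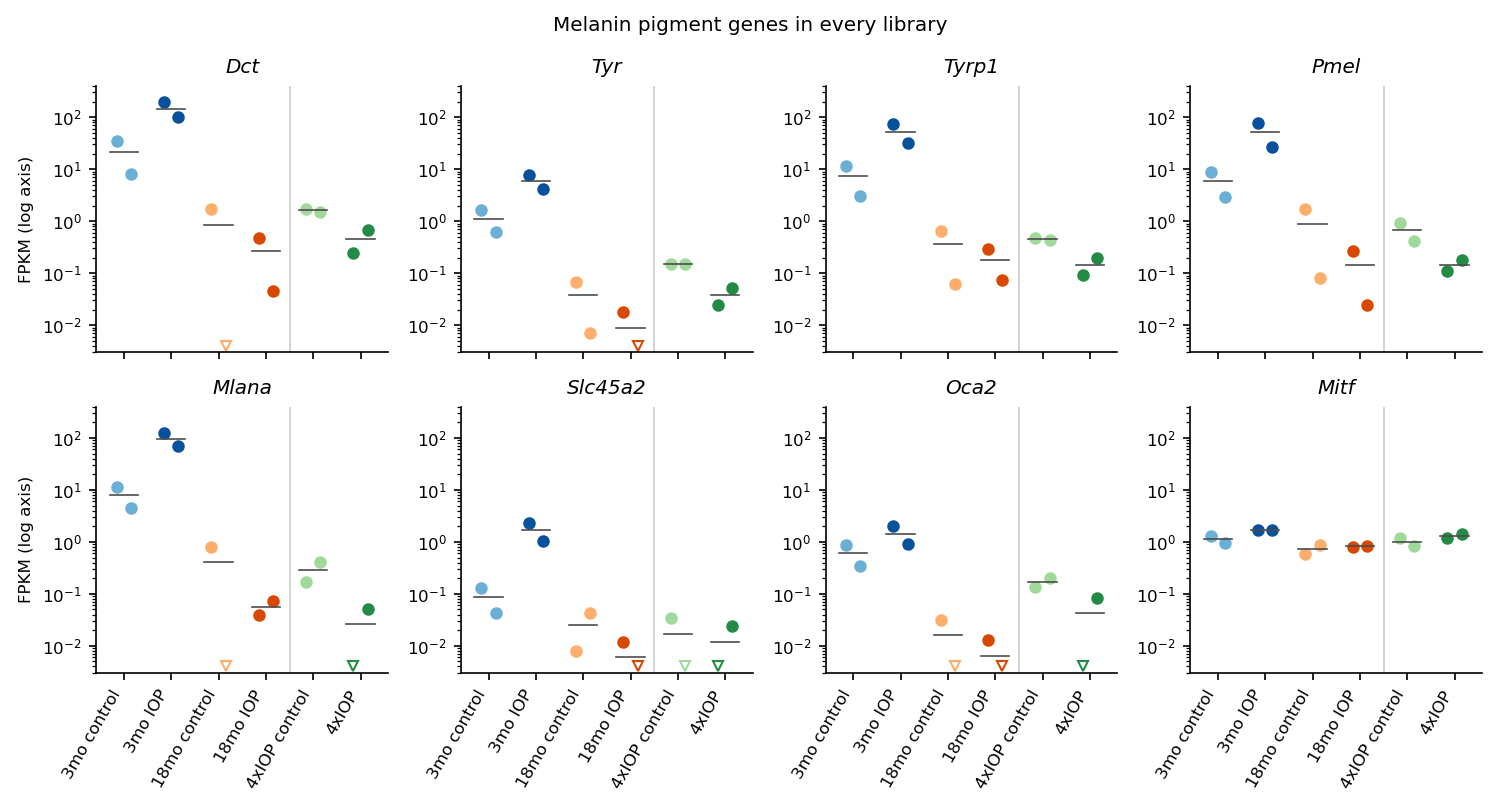
FPKM of each member on a log axis in all 12 libraries, with filled points for libraries, bars for group means and open triangles at the lower edge for libraries at 0; the vertical line parts the single-elevation table from the repeated-elevation table, which was scaled separately. In every panel both 3mo IOP libraries stand above the other libraries of the single-elevation table, narrowly so for Oca2, and the 18mo libraries lie below the 3mo controls, except for Slc45a2, or at the lower edge. Mitf stays between 0.589 and 1.71 FPKM.

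The question of the 3mo comparison was what a single pressure elevation changes in the young retina. All 8 members had higher values in both 3mo IOP libraries than in both 3mo control libraries. Dct reached 195 and 99.4 FPKM, so that its group mean was 147 ± 67.3 FPKM against 21.3 ± 18.8 in the control eyes (SD, n = 2 each), 6.89-fold higher. The other enzymes of the family moved by similar factors. Tyrp1 stood at 73.8 and 32.2 FPKM, 7.13-fold above its control mean, and Tyr at 7.79 and 4.24 FPKM, 5.34-fold above.

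The structural genes of the melanosome were higher as well. Mlana had 124 and 69.0 FPKM in the 3mo IOP libraries, 12.1-fold above the mean of 7.99 in the control eyes. Pmel had 76.2 and 27.2 FPKM, 8.79-fold above. The transporters were the members with the fewest reads. Slc45a2 rested on few reads in the control eyes but had 2.35 and 1.05 FPKM in the IOP eyes, from 380 and 130 reads, 19.8-fold above its control mean. Oca2 had 1.98 and 0.890 FPKM, 2.38-fold above, and its lower IOP library lay just over the higher control library at 0.868. Mitf had 1.71 and 1.68 FPKM, 1.49-fold above its control mean.

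On the log2 scale the differences were 3.59 ± 0.53 for Mlana (SE), 3.03 ± 0.73 for Pmel, 3.01 ± 0.81 for Dct, 2.89 ± 0.62 for Tyrp1, 2.02 ± 0.36 for Tyr, 0.79 ± 0.35 for Oca2 and 0.43 ± 0.22 for Mitf, and 1.85 for Slc45a2, which was not fitted. Their median was 2.45, beside 0.13 over all 13731 genes tested. Of the 7 members tested, Mlana alone was called, and 6 were not, while 0.568% of all tested genes were called higher and 0.00728% lower. Without any 1 of the 4 libraries of this comparison, and with median-of-ratios size factors or voom on the recovered reads, 0 of the 7 were called, with medians between 1.87 and 3.12 when a library was left out. With the trend on transcript length removed, Tyr was called and Mlana was not. With a term for the replicate number (replicate block), 3 of the 7 were called, although the numbers are not tied to animals. The groups did not overlap for 8 of 8 members, and in the same direction they did not overlap for 28.6% of all tested genes. The members were chosen on measured values of these contrasts, so nothing is read from these counts or from those of the other comparisons. The comparisons within the single-elevation table also share libraries.

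**Figure D2:**
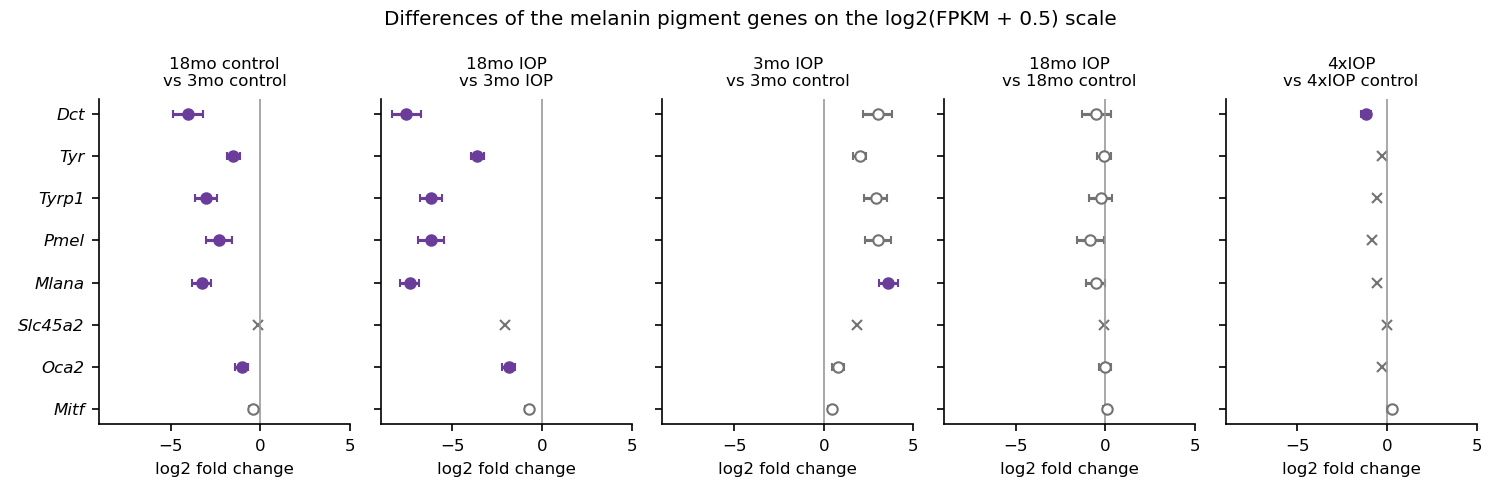
Log2 fold change of each member in 5 comparisons, with bars for 1 SE; filled points are called, open points are tested and not called, and crosses mark members under the expression minimum, which have no SE. Values lie between -4.05 and -0.15 for age in untreated eyes, between -7.57 and -0.74 for age in treated eyes, between 0.43 and 3.59 for the 3mo IOP eyes, within 1 of 0 for the 18mo IOP eyes, and between -1.18 and 0.25 for the 4xIOP eyes.

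In the untreated eyes of 18mo animals all 8 members were below 2 FPKM. Dct was listed at 1.70 FPKM in replicate 1 of the 18mo control group and at 0 in replicate 2, where 0 reads allow up to 0.0285 FPKM (3 reads, counting error only). Tyrp1 stood at 0.662 and 0.063 FPKM, Pmel at 1.69 and 0.081, and Mlana at 0.804 and 0. Tyr had 0.068 and 0.007 FPKM, from 18 and 2 reads. The transporters were at the limit of the depth, with 0.032 and 0 FPKM of Oca2 and 0.008 and 0.043 of Slc45a2. The 18mo control library of replicate 1 held the higher value for 6 of the 8 members, Slc45a2 and Mitf being the exceptions, and the summed FPKM of the 8 was 5.56 and 1.07. Mitf was again the steadiest, with 0.589 and 0.874 FPKM.

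Compared with the 3mo control eyes, the group mean was 25.1-fold lower for Dct, 30.0-fold lower for Tyr, 20.5-fold lower for Tyrp1, 19.9-fold lower for Mlana and 6.63-fold lower for Pmel. Oca2 was lower too, but no fold is given on 4 reads in all in the old eyes, and Mitf was 1.56-fold lower. The log2 differences were -4.05 ± 0.81 for Dct, -3.27 ± 0.53 for Mlana, -3.04 ± 0.62 for Tyrp1, -2.32 ± 0.73 for Pmel, -1.53 ± 0.36 for Tyr, -1.06 ± 0.35 for Oca2 and -0.41 ± 0.22 for Mitf, and -0.15 for Slc45a2, which was not fitted. Their median was -1.92, beside 0.16 over all tested genes. Called lower were 6 of the 7 members tested, all but Mitf, where 11.6% of all tested genes were called lower and 11.6% higher. The count rested on 1 library: without replicate 2 of the 18mo control group, in which Dct and Mlana are at 0, 1 member (Mlana) was called and the median was -1.40. The libraries of the groups did not overlap for 7 of the 8 members, Slc45a2 being the exception, and in that direction for 32.8% of all tested genes.

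The comparison of age in treated eyes also holds the difference between the 3mo IOP and 3mo control values, and its libraries were among those the members were chosen on. The 18mo IOP libraries had 0.485 and 0.045 FPKM of Dct, 0.287 and 0.074 of Tyrp1, 0.267 and 0.024 of Pmel, and 0.018 and 0 of Tyr. Mlana had 1 and 2 reads in these libraries, Slc45a2 had 2 and 0, and Oca2 had 2 and 0, so no fold is given for these 3 genes, nor for Tyr, which had 6 and 0. Mitf had 0.801 and 0.832 FPKM. Dct was 555-fold lower in the group mean than in the 3mo IOP eyes, on 60 and 6 reads, Pmel 355-fold, Tyrp1 294-fold and Mitf 2.08-fold, and with so few reads in the old eyes no order is read from the large folds. The log2 differences were -7.57 ± 0.81 for Dct, -7.39 ± 0.53 for Mlana, -6.20 ± 0.62 for Tyrp1, -6.18 ± 0.73 for Pmel, -3.62 ± 0.36 for Tyr, -1.88 ± 0.35 for Oca2 and -0.74 ± 0.22 for Mitf, and -2.05 for Slc45a2, which was not fitted. Their median over the 8 was -4.90, beside 0.093 over all tested genes. Called lower were 6 of the 7 members tested, where 11.6% of all tested genes were called lower and 10.2% higher, and the groups did not overlap for 8 of 8 members, nor in that direction for 34.5% of all tested genes.

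Within the 18mo animals, no melanin gene was called in either direction after IOP elevation. For all 8 members the libraries of the treated and untreated eyes overlapped. The group mean was lower in the treated eyes for 7 of the 8, all but Mitf. Pmel was 6.09-fold and Dct 3.21-fold lower, and both control means rested mostly on replicate 1 of the 18mo control group. The log2 differences lay between -0.83 ± 0.73 for Pmel and 0.11 ± 0.22 for Mitf, with a median of -0.17 beside 0.089 over all tested genes. None of the 7 members tested was called, where 0.117% of all tested genes were called higher and 0.00728% lower. Tyr, Tyrp1, Mlana and Oca2 averaged under 0.5 FPKM in both 18mo groups and passed the expression minimum only through the 3mo libraries. With 0.5 FPKM added, a call lower was hardly within reach for them, so nothing is read from its absence. The difference between the ages in the IOP effect, as an interaction term, was -4.12 ± 0.75 for Mlana, -3.86 ± 1.03 for Pmel, -3.53 ± 1.15 for Dct, -3.16 ± 0.88 for Tyrp1 and -2.09 ± 0.52 for Tyr on the log2 scale. For 0 of the 7 members did that term pass, and it passed for 0% of all tested genes, with 218 of the 13731 genes at an unadjusted p under 0.05 in limma and 0 genes passing with voom on the recovered reads. Without the filter on low values 2 of 20302 genes passed.

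Repeated elevation went with lower, not higher, values of most melanin genes. In the untreated fellow eyes, Dct stood at 1.73 and 1.53 FPKM, Pmel at 0.915 and 0.413, Tyrp1 at 0.471 and 0.442, Mlana at 0.166 and 0.416, Tyr at 0.150 and 0.149, and Oca2 at 0.133 and 0.20. After 4 elevations Dct had 0.245 and 0.683 FPKM, Pmel 0.109 and 0.179, Tyrp1 0.092 and 0.20, Mlana 0 and 0.052, Tyr 0.024 and 0.051, and Oca2 0 and 0.084. For these 6 members both 4xIOP libraries lay below both control libraries, and in that direction the groups did not overlap for 12.7% of all tested genes. The mean was 4.61-fold lower for Pmel, 3.99-fold for Tyr, 3.96-fold for Oca2, 3.51-fold for Dct and 3.13-fold for Tyrp1. Mlana rested on 1 read in the 4xIOP libraries and 11 in the controls, and Slc45a2 on at most 4 reads in any library of this table. Mitf had 1.19 and 1.40 FPKM after 4 elevations against 1.21 and 0.818 in the controls, and the groups overlapped.

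Of the 2 members that could be tested in this table, Dct was called lower, with a log2 difference of -1.18 ± 0.26, and Mitf was not, with 0.25 ± 0.23. Of all tested genes, 0.693% were called lower and 5.45% higher. The Dct call was lost without replicate 1 of either group. The median over the 8 members was -0.44, beside 0.096 over all 13718 genes tested, and the low values keep this figure near 0 on a scale with 0.5 FPKM added. Levels are not compared across the tables, which were scaled separately and have no library in common.

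The shares of the members in their summed FPKM were set side by side. Dct made up 39.2 to 49.0% of the members' summed FPKM in the 3mo control libraries and 40.3 to 42.2% in the 3mo IOP libraries. Tyrp1 made up 15.1 to 16.7% and then 13.7 to 15.3%, and Pmel 12.6 to 14.1% and then 11.6 to 15.8%. These 3 overlapped between the groups, and the other 5 did not. Mlana took a larger share in the IOP eyes, 25.8 to 29.3% against 16.2 to 22.2%, and so did Slc45a2, 0.445 to 0.487% against 0.184 to 0.204%. Smaller in the IOP eyes were the shares of Tyr, 1.61 to 1.80% against 2.31 to 3.03%, and of Oca2, 0.378 to 0.411% against 1.23 to 1.65%. Mitf was 1.87 to 4.65% of the sum in the 3mo control eyes and 0.355 to 0.713% in the 3mo IOP eyes, and it made up 10.6 and 81.8% of it in untreated and 41.7 to 79.3% in treated eyes of 18mo animals. In replicate 1 of the 18mo control group Dct was still the largest part, with 30.6%, followed by Pmel with 30.5%. In the other 3 old libraries Mitf was the largest part of the sum, although its own level was 1.56-fold lower in the untreated and 2.08-fold lower in the treated eyes than at 3 months.

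**Figure D3:**
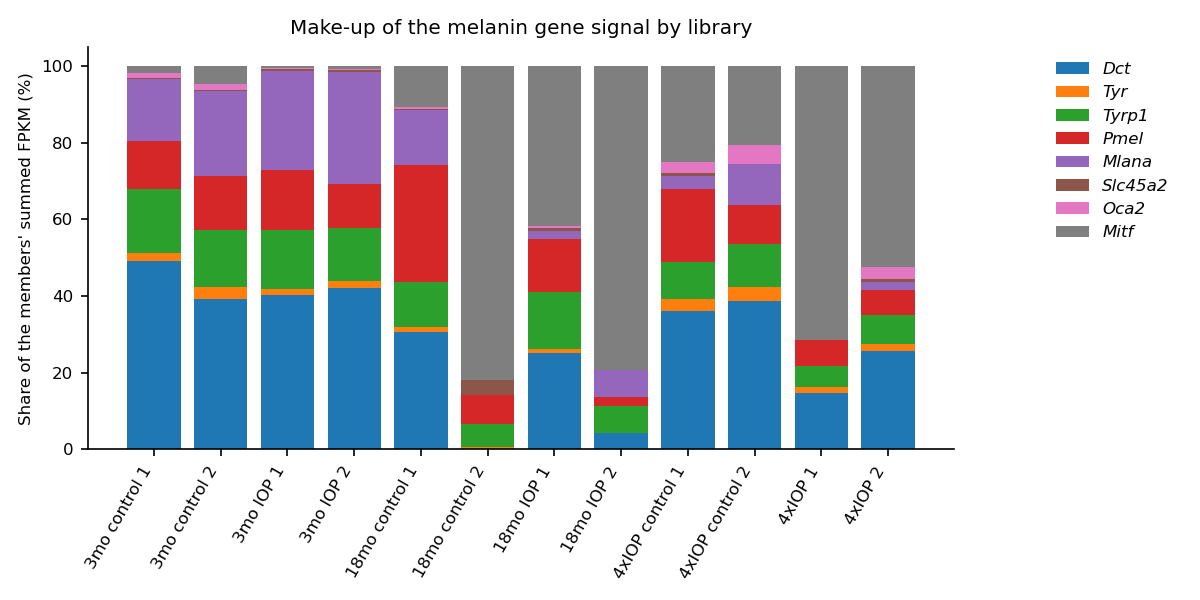
Share of each member in the summed FPKM of the 8 members, in percent, stacked for each library of the 6 groups. Dct, Mlana, Tyrp1 and Pmel fill most of the 3mo bars, and Mitf fills 41.7 to 81.8% of 3 of the 4 18mo bars and 52.3 to 71.6% of the 4xIOP bars.

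Because the RPE is the nearest pigmented tissue to the retina, the members were set beside 5 genes that define it. Rpe65 is the isomerase and Lrat the acyltransferase of the visual cycle, Rdh5 its dehydrogenase, Rgr an opsin of the RPE and Muller glia, and Best1 a chloride channel. Rpe65 stood at 17.6 and 18.2 FPKM in untreated and at 20.5 and 5.59 in treated eyes of 3mo animals, and at 0.462 and 0.176 in untreated and 0.160 and 0.018 in treated eyes of 18mo animals. It was alike in the 2 young control libraries, and the 3mo groups overlapped. In the 3mo control group the 5 genes together came to 56.8 to 66.9 FPKM, with 26.7 to 77.3 in the 3mo IOP group, 1.88 to 3.36 in the 18mo control group and 1.89 to 2.20 in the 18mo IOP group. Best1 was at or below 0.361 FPKM in all 12 libraries, so that this defining marker was near 0 throughout.

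Of 13 tested RPE markers, 7 were called lower with age in untreated eyes, where 11.6% of all tested genes were. Between untreated eyes, Rpe65 fell by 4.51 ± 0.50 on the log2 scale (limma, adjusted p = 0.00353), and the log2 differences of the others were -4.06 ± 0.48 for Rgr (adjusted p = 0.00417), -3.49 ± 0.39 for Rdh5 (adjusted p = 0.00367) and -2.59 ± 0.37 for Lrat (adjusted p = 0.00496). In that list of 15, 1 marker, the phagocytosis receptor Mertk, was called higher, 5 were tested and not called, and 2 were not tested. In the 3mo IOP eyes, 0 of 13 were called in either direction, beside 0.575% of all tested genes, a share at which 0 calls in a list of this size say little. Rpe65 differed there by -0.70 ± 0.50 on the log2 scale (limma, adjusted p = 0.891) and Rdh5 by -0.046 ± 0.39 (adjusted p = 0.999). In 4xIOP, where 0.693% of all tested genes were called lower and 5.45% higher, 10 of the markers were tested. Ttr, the thyroid hormone carrier made by the RPE, Rgr, Rpe65 and Rdh5 were called lower, with log2 differences of -2.54 ± 0.25 for Rgr and -2.26 ± 0.30 for Rpe65 (limma, adjusted p = 1.9e-05 and 0.000239), and the secreted sulfatase Sulf1 was called higher. These 5 calls became 3 without either 4xIOP library.

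The ratio of summed members to these 5 markers, a choice made after seeing the data, was 6.25 and 8.84 in the 3mo IOP libraries against 1.24 and 0.308 for their untreated fellows. It was 1.65 and 0.570 in the 18mo control group, 0.875 and 0.556 in the 18mo IOP group, 0.535 and 0.258 in the 4xIOP control group and 1.04 and 1.01 in the 4xIOP group. Without Mitf the ratio was 0.294 and 0.483 in the 4xIOP group against 0.401 and 0.205 in its control, which overlapped, and 6.22 and 8.77 in the 3mo IOP group against 1.22 and 0.294. The 3mo IOP libraries were thus the only 2 of the 12 above 2. Against the whole list of RPE markers without Ttr the ratio was 0.460 and 0.115 at 3 months without and 2.13 and 1.69 with IOP, and at most 0.0618 in the 18mo libraries. In the repeated-elevation table that ratio went the other way from the ratio to the 5 markers, with 0.0943 and 0.0580 in the 4xIOP control group and 0.0247 and 0.0298 in the 4xIOP group, which did not overlap. The direction in 4xIOP thus depended on the markers chosen. The whole list held genes that stayed high in old eyes, such as Krt18 with 28.2 and 24.8 FPKM in the 18mo control group. With 2 libraries a group, no exact permutation test of such a ratio can reach 0.05.

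**Figure D4:**
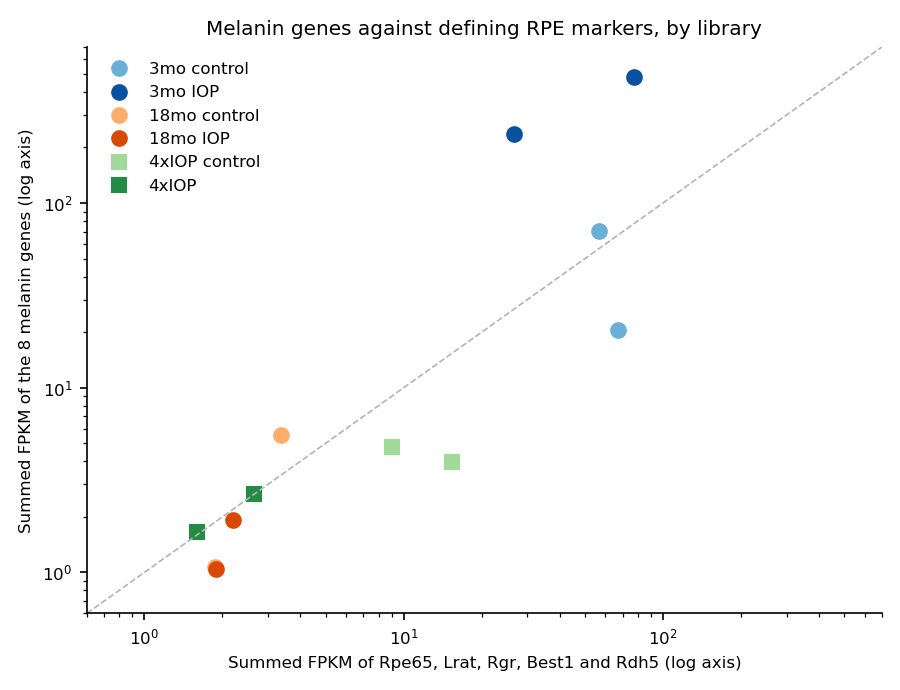
Summed FPKM of the 8 melanin genes against the summed FPKM of Rpe65, Lrat, Rgr, Best1 and Rdh5, both on log axes, for the 12 libraries, with circles for the single-elevation table, squares for the repeated-elevation table and a dashed line where the sums are equal. The 3mo IOP libraries lie farthest above the line, at ratios of 6.25 and 8.84. Replicate 1 of the 3mo control group (1.24) and of the 18mo control group (1.65) and both 4xIOP libraries (1.04 and 1.01) are also above it. The 18mo and 4xIOP libraries lie in the lower left corner.

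Markers of other pigmented and neighbouring tissues were read beside the 3mo IOP values. The choroid stroma and vessel markers summed to a range of 4.29 to 5.17 FPKM in the 3mo control eyes and of 17.3 to 56.3 in the 3mo IOP eyes, and 1 of the 5 tested, the collagen-binding proteoglycan Lum, was called higher, by 2.45 ± 0.38 on the log2 scale (limma, adjusted p = 0.0372), beside 0.568% of all tested genes. The Lum call was lost without either 3mo control library, without replicate 1 of the 3mo IOP group, without either 18mo control library, with a pseudocount of 0.1, without the filter, with the replicate block, and with median-of-ratios size factors or voom. Dcn, a related proteoglycan, had 2.27 and 3.40 FPKM in the control eyes and 41.8 and 11.4 in the IOP eyes. Neural crest melanocyte markers ranged from 2.40 to 2.98 FPKM in sum in the 3mo control group and from 3.52 to 5.21 in the 3mo IOP group. Of these 6, 2 were tested, and neither was called. Ednrb had 3.08 and 2.28 FPKM in the 3mo IOP eyes against 1.51 and 1.20 in the controls (limma, adjusted p = 0.255). Mc1r went the other way, with 0.453 and 0.564 FPKM against 0.711 and 0.755 (limma, adjusted p = 0.921). Among those not tested, the early melanocyte factor Pax3 was at 0 in 9 of the 12 libraries and at most 0.164 FPKM in any. Sox10, a neural crest factor, had 0.979 and 0.213 FPKM in the 3mo IOP eyes against 0.258 and 0.209. Ciliary and iris epithelium markers ranged from 11.2 to 14.4 FPKM and then from 16.0 to 16.1, with 0 of 3 tested called, and lens markers from 1.96 to 2.24 and then from 3.50 to 7.97, with 0 of 1 called. The part of these tissues in the melanin values was not tested.

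In the age comparison of untreated eyes, where 11.6% of all tested genes were called lower and 11.6% higher, the neural crest, ciliary and lens lists had 0 genes called, and the choroid list had 1, the vessel gene Plvap, called higher. The rod markers had 1 of 5 called lower, the Muller glia markers 2 of 4 called higher and the microglia markers 2 of 5 called higher. In 4xIOP, where 5.45% of all tested genes were called higher and 0.693% lower, 4 of the 5 microglia markers and all 3 lens markers tested were called higher, while the neural crest, ciliary, choroid, rod and Muller glia lists had 0 genes called. In the treated eyes, where 11.6% of all tested genes were called lower and 10.2% higher, the comparison of age had 2 higher and 7 lower calls among 13 RPE markers, 2 of 5 choroid markers and the 1 lens marker lower, 1 of 5 rod markers lower, 3 of 4 Muller glia and 2 of 5 microglia markers higher, and 0 calls among neural crest and ciliary markers. Between treated and untreated 18mo eyes, 0 genes of any list were called, and between those of 3mo animals the rod, Muller glia and microglia lists had 0.

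Other genes of the melanosome were read from lists of related genes. Of the content and ion transport list, Slc24a5, the melanosome exchanger whose variants lighten pigment, and the tetraspanin Tspan10 had the same order of groups as most members. Slc24a5 had 3.09 and 0.863 FPKM in the 3mo control eyes, 12.6 and 6.30 in the 3mo IOP eyes, and at most 0.270 in the 18mo libraries. Between untreated eyes it fell by 1.77 ± 0.48 and Tspan10 by 1.84 ± 0.42 on the log2 scale (limma, adjusted p = 0.0194 and 0.0115), while Slc24a4, a relative used elsewhere, rose by 1.24 ± 0.28 (adjusted p = 0.0117). These 3 were the calls among 9 tested, beside 23.2% of all tested genes called in either direction, and the list's median was -0.19. Without replicate 2 of the 18mo control group 0 of the 9 were called. In treated eyes 3 of the 9 were called lower with age, Slc24a5 with a log2 difference of -4.05 ± 0.48 (adjusted p = 0.00271), Tspan10 and Gpnmb, and 1 higher, beside 21.8% of all tested genes, and these 4 became 2 without replicate 1 of the 3mo IOP group.

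Gpnmb, a glycoprotein related to Pmel that macrophages also make, went with the members in the young eyes and against them after repeated elevation. It had 8.36 and 3.49 FPKM in the 3mo control eyes and 128 and 50.8 in the 3mo IOP eyes, a log2 difference of 3.77 ± 0.64 (limma, adjusted p = 0.0531). In 4xIOP it rose by 1.62 ± 0.24 (adjusted p = 0.000594), from 0.811 and 1.62 FPKM to 4.28 and 4.98, and the vesicle tetraspanin Cd63 rose by 1.19 ± 0.27 (adjusted p = 0.0141). These were the 2 calls of 7 tested, beside 6.15% of all tested genes in either direction, and they became 0 without replicate 2 of the 4xIOP group and 1 without any other library. In the 3mo IOP comparison 0 of the 9 tested genes of this list were called, beside 0.575% of all, with a median of 0.75.

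The machinery that builds and moves melanosomes, which other cells use for lysosome-related organelles, was called about as often with age as all tested genes. In the 3mo IOP eyes, where 0.575% of all tested genes were called in either direction, 1 of 26 tested genes was called, the small GTPase Rab38, which rose by 1.66 ± 0.26 on the log2 scale (limma, adjusted p = 0.0378), from 1.12 and 1.47 FPKM to 6.65 and 3.94. Its call was lost with median-of-ratios size factors, with voom, with the replicate block, without the filter, with a minimum mean of 2 FPKM and without either 18mo control library, and the list had 0 calls without replicate 1 of the 3mo control group or without either 3mo IOP library, and 2 without replicate 2 of the 3mo control group. Its close relative Rab32 was the only call of 26 in 4xIOP, where it rose by 1.91 ± 0.25 (adjusted p = 0.000253), a share of the list under the 6.15% of all tested genes. With age in untreated eyes 3 of 26 were called lower, Bloc1s1, Sytl2 and the adaptor subunit Ap3m1, and 3 higher, with a median of 0.012, where 23.2% of all tested genes were called in either direction. These 6 calls became 11 without replicate 1 of the 3mo control group, and 3 without its replicate 2 or without replicate 2 of the 18mo control group. In the treated eyes 5 of 26 were called lower with age, Rab38 by a log2 difference of -1.69 ± 0.26 (adjusted p = 0.00546), and 1 higher, and these 6 became 3 without replicate 1 and 1 without replicate 2 of the 3mo IOP group.

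Signals and factors around Mitf, and further genes known as Mitf targets, were read in the same way. With age in untreated eyes, 3 of the 17 tested were called higher, the glial factor Sox9 and Tfe3, a relative of Mitf, among them, and 1, Pomc, was called lower, and these 4 calls became 1 without replicate 2 of the 3mo control group or replicate 1 of the 18mo control group, and 2 without replicate 2 of the latter. The melanocyte and bipolar channel Trpm1 had 23.2 and 15.4 FPKM in the 3mo control eyes and 48.5 and 69.1 in the 18mo control eyes, a rise of 1.59 ± 0.27 on the log2 scale (limma, adjusted p = 0.00628). Tbx2 and the survival gene Bcl2 also rose, so that 3 of 9 listed targets were called higher with age and 0 lower, in untreated and in treated eyes alike. Of all tested genes, 23.2% were called in either direction with age in untreated eyes and 21.8% in treated eyes, and the 4 of 17 signals and factors lay near these shares. The 3 target calls in treated eyes became 0 without either 3mo IOP library. Of the 17 signals and factors, 3 were called higher and 1, Edn3, lower with age in treated eyes. In the 3mo IOP comparison 0 of 17 and 0 of 9 were called, beside 0.575% of all tested genes. Edn3, the endothelin that supports melanocytes, had 0.310 and 0.263 FPKM in the 3mo control eyes and 4.67 and 1.36 in the 3mo IOP eyes, a log2 difference of 1.98 ± 0.43 that was not called (adjusted p = 0.122). In 4xIOP none of 15 and none of 9 were called, beside 6.15% of all, and 1 of the 15 was without replicate 2 of the 4xIOP control group.

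**Figure D5:**
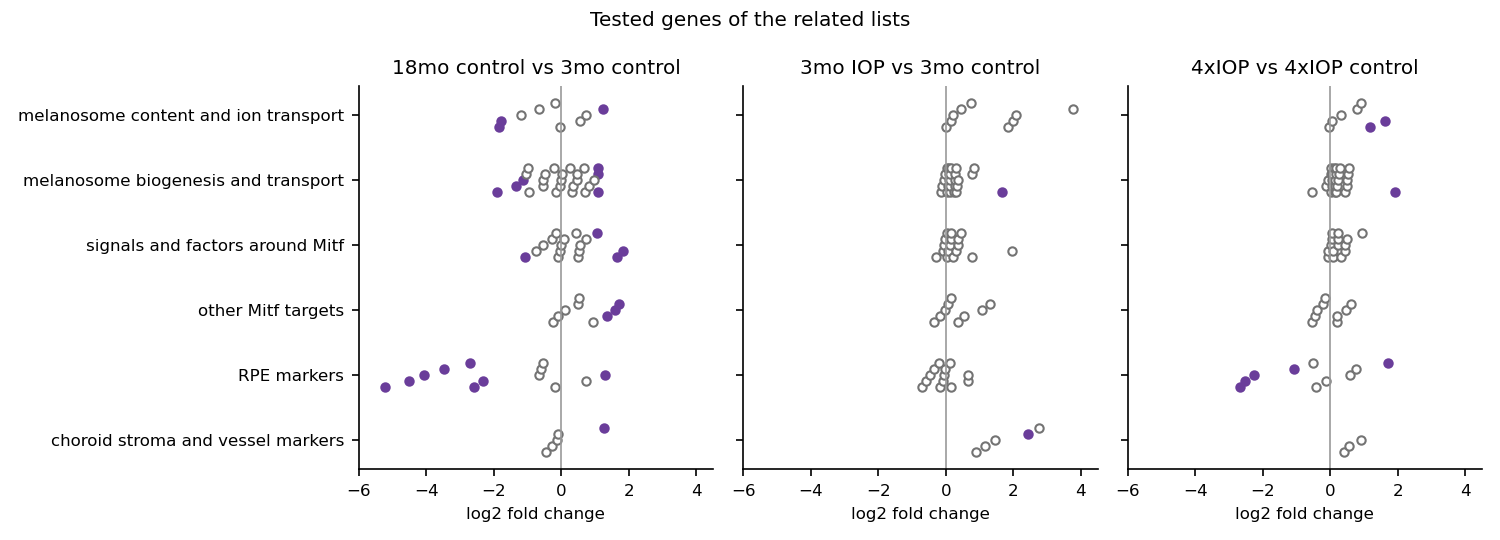
Log2 fold change of every tested gene of 6 related lists in 3 comparisons, with filled points for called genes and open points for the others; the vertical spread within a list is for display only. The RPE markers reach -5.22 in the comparison of age and lie within 1 of 0 in the 3mo IOP comparison, where Rab38 and Lum are the called genes.

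The members followed each other closely across the 8 libraries of the single-elevation table. Pearson's r between a member and the mean of the other tested members, on log2(FPKM + 0.5), was 0.998 for Tyrp1, 0.995 for Tyr, 0.991 for Mlana, 0.984 for Dct, 0.982 for Oca2, 0.979 for Pmel and 0.914 for Mitf. These 8 points are 4 groups of 2 that share age and treatment, so the values are descriptions. Outside the 8 genes, the profiles most like the members' mean were those of Tspan10 (r = 0.999), Slc24a5 (0.998), the Wnt inhibitor Sfrp1 (0.994), the gap junction gene Gja1 (0.993), Cpxm2 (0.993), Islr (0.985), Gsta3 (0.983), Gstm2 (0.976), 6330415G19Rik (0.971) and Ogg1 (0.969). Of these, 2 were on the related lists, both as genes of melanosome content. The same measure was 0.841 for Rpe65, 0.821 for Lrat, 0.849 for Rgr and 0.877 for Rdh5. For Mitf alone, the most alike were Nkain1 (r = 0.971), Sqle (0.965) and Rbpms (0.965).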

How the data were processed

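Poly(A) RNA of 12 bulk retina libraries was sequenced as strand-specific TruSeq libraries. The authors aligned reads with STAR 2.7.8a to mm10, counted exon tags with strand in HOMER, kept 1 transcript per gene, and deposited FPKM per gene. FPKM times transcript length gave whole tags for 100% of the values precise enough to show it (within 0.1), from which the depth of each library was recovered; intervals and limits cover counting error only. Genes were matched by symbol; transcripts of both tables were the same for 91.7% of genes.

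Differences were fitted in R 4.3.3 with limma 3.58.1 (trend) on log2(FPKM + 0.5) for genes averaging 0.5 FPKM or more, with the 4 groups of the single-elevation table in 1 fit and the repeated-elevation table in another, and p-values adjusted over all tested genes. The study names replicates as biological, and the labels do not tie replicate numbers to animals. The fit was checked on simulated data. The members and all lists were chosen with earlier results of these data known. Named from each list were called genes with the largest change, or otherwise those with the smallest p. Some further genes, such as Dcn, Pax3 and Sox10, were named outside this rule. The 10 genes most like the members, and the 3 most like Mitf, were named by Pearson's r. Protein comparisons were not made here. The values of 1 listed gene are not reported here.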

Additional observations from a re-analysis of the deposited data

Results flagged for a closer look

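For 6 of the 8 members and 3 of the 116 other listed genes, both IOP libraries lay above both control libraries after a single elevation at 3 months and below them after 4 elevations. The same held for 1.17% of all 25124 genes in both tables and for 1.54% of those tested in the single-elevation table. The members were chosen on these libraries, so their count is a description. The difference between the 2 conditions was not tested, because the tables were scaled separately. The log2 fold changes after 1 and after 4 elevations were 3.01 and -1.18 for Dct, 2.02 and -0.27 for Tyr, 2.89 and -0.57 for Tyrp1, 3.03 and -0.82 for Pmel, 3.59 and -0.57 for Mlana, and 0.79 and -0.30 for Oca2. They were 2.09 and -0.44 for Slc24a5 and 1.99 and -0.38 for Tspan10, the 2 genes most like the members. For Ctsk, a lysosomal protease gene regulated by Mitf in bone, they were 1.31 and -0.39. Of the 9 genes, Tyr, Tyrp1, Pmel, Mlana, Oca2, Slc24a5 and Tspan10 were under the expression minimum of the repeated-elevation table. Beside these values, the 5 defining RPE markers, chosen after seeing the data, summed to 26.7 to 77.3 FPKM in the 3mo IOP eyes against 56.8 to 66.9 in their controls. In the 4xIOP eyes they summed to 1.60 to 2.64 FPKM against 8.98 to 15.4. The whole list of RPE markers was not lower there, with 68.8 to 93.9 FPKM in the 4xIOP eyes against 69.5 to 91.4. Without Ttr that list summed to 66.9 to 89.7 FPKM against 50.9 to 68.4.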

How the results depend on the processing

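The members' medians kept their direction under every alternative run, except in the 18mo IOP comparison, where leaving out a library gave -0.47 to 0.072. Of the members called in the 3mo IOP comparison, Mlana was lost with a pseudocount of 0.1, without the filter, with median-of-ratios size factors and with voom (0 each), and 0 to 0 were called with a library left out. In 4xIOP, Dct was lost with a pseudocount of 1 and without the filter (0 each), with a mean of 2 FPKM as the minimum no member was tested (0 called), and 0 to 1 were called with a library left out. With age, leaving out a library gave 1 to 6 called in untreated eyes. The cause of these changes was not tested. The medians moved to -3.12 and -5.31 (untreated eyes, age), -6.65 and -8.80 (treated eyes, age) and -1.09 and -2.15 (4xIOP) with a pseudocount of 0.1 and with voom, to -4.05 and -0.24 (treated eyes, age, and 4xIOP) with a pseudocount of 1, to -0.91 with voom in the 18mo IOP comparison, and to -0.61 in 4xIOP with the length trend removed. Median-of-ratios scaling moved the median of all genes from 0.16 to 0.010 with age in untreated eyes and from 0.13 to -0.052 in the 3mo IOP comparison, and the share of higher calls with age from 50.1% to 35.0%. Called genes in the 3mo IOP comparison numbered 79, and 3 with voom.

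The numbers were not taken as pairs, because the labels do not tie them to animals. Same-numbered libraries of control and IOP deviated in opposite directions (correlations of -0.28, -0.53 and -0.29). Groups of different age, which share no animal, also had negative values, -0.12 for the controls and -0.15 for the IOP eyes. With 2 libraries a group, these correlations cannot decide which eyes were pairs. With the replicate block, 3 members were called in the 3mo IOP comparison, and with crossed numbers, chosen after seeing the data, also 3; over all genes the block called 20 and the crossed block 312, against 0 and 306 in the 18mo IOP comparison.

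The mean ratio of members to RPE markers moved to 1.22 in 3mo IOP with Ttr in the list, and to 0.00539 in 18mo IOP and 0.0106 in 4xIOP without Mitf. With the 5 defining markers it was 0.776, 7.54, 1.11, 0.716, 0.397 and 1.02 in 3mo control, 3mo IOP, 18mo control, 18mo IOP, 4xIOP control and 4xIOP, and without Mitf, also chosen after seeing the data, it was 0.757, 7.50, 0.791, 0.313, 0.303 and 0.388. For single members, apart from left-out libraries, 274 values kept their side of the threshold and moved by less than the spread. A further 62 kept their side and moved further, 16 lost and 8 gained a call. Depth limits the members at or under 3 reads.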
